A study of Homo sapiens with 36 samples.

Results

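Ribosome footprints were compared between WiT49 cells kept for 72 h in 2 nM actinomycin D and cells kept for 72 h in its vehicle, DMSO. WiT49 is a line grown from an anaplastic Wilms tumor, a childhood kidney cancer, so all libraries come from 1 line. The comparison rests on 6 of the 36 libraries of the series, replicates 1 to 3 of each treatment, and its subject is the classes of proteins that gained or lost footprints. RNA libraries of the same treatments and time (3 per group) and footprint libraries at 6 h and at 2 weeks (3 per group each) were used for comparison. In the 2-week scheme, cells went through cycles of drug or vehicle followed by plain medium. The labels do not say that replicates were separate cultures, so p-values measure the spread between these libraries, which may be technical. Of the markers of Wilms tumor and nephron progenitors, IGF2 had 64738 to 125350 RNA counts per library and NCAM1 and WT1 were present, whereas SIX2 had 2 to 26 and CITED1 8 to 25. The endothelial genes PECAM1 and CDH5 and the blood gene CD3E had 0 to 2 RNA counts.

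Actinomycin D inserts into DNA and stalls RNA polymerases, and at low doses it acts most strongly on RNA polymerase I, which makes the precursor of ribosomal RNA. A ribosome that is translating covers a short stretch of messenger RNA and protects it from nuclease. Sequencing these protected fragments, the footprints, gives for each gene a count that depends on how much of its mRNA there is and on how densely ribosomes load it. Ribosomes are themselves built from ribosomal RNA and ribosomal proteins. The mRNAs of ribosomal proteins and of some elongation factors begin with a run of C and T bases. Their translation is controlled as a group through this run, the 5′ terminal oligopyrimidine tract.

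Start windows are shown for 4 large-subunit ribosomal protein genes whose footprints rose and for the elongation factor EEF2. They are also shown for CHD4 and UBA1, whose footprints fell. These genes were picked as examples with their values known. Each window runs from 15 bases before to 15 bases from the annotated transcription start onward, 5′ to 3′ on the gene's strand (RefSeq, GRCh38.p14), and capitals mark the longest unbroken run of C or T. Where a gene has several listed starts, the one with the longest run is printed.
RPL37A: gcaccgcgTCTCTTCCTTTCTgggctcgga
RPL28: tcgcccctcgCCTTCCTCTTTCCgtctcag
RPL13: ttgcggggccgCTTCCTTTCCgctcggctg
RPL34: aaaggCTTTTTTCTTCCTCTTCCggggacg
EEF2: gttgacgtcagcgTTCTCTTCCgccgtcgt
CHD4: CCCTCCCCCgcacagtgactcgggccagtg
UBA1: ttccgagctccgcgcaaactctggCTTCTC
The windows lie at chr2:216498829-216498858 (RPL37A), chr19:55385917-55385946 (RPL28), chr16:89560667-89560696 (RPL13) and chr4:108620561-108620590 (RPL34), all on the plus strand. The other 3 lie at chr19:3985449-3985478 (EEF2, minus strand), chr12:6606437-6606466 (CHD4, minus) and chrX:47190832-47190861 (UBA1, plus). In the 4 ribosomal protein genes the run is 10 to 18 bases long and spans the start, and in EEF2 it is 9 bases long and also spans it. In CHD4 the run of 9 bases lies at the upstream end of the window, and in UBA1 the longest run has 6 bases. Of the 39 large-subunit genes with a listed start (of 47), 32 (82.1%) had a run of at least 8 C or T bases on the gene's strand in this window, against 381 of 1877 (20.3%) among all tested protein-coding genes with a listed start. The share was 27.3% (3 of 11) for elongation and termination factors. It was 36.6% (15 of 41) for chromatin enzymes and 31.6% (12 of 38) for ubiquitin-system enzymes. Of the genes called lower, 22.7% (10 of 44) had such a run. For the small subunit 25 of 32 genes (78.1%) had a listed start, and for non-ribosomal genes called higher 22 of 30 (73.3%). Both lie under the 80% set as a minimum for such a check, so their shares are void. A run is a description of these letters and does not show that a transcript starts there in WiT49.

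The footprint libraries were shallow and unequal. Totals were 784322, 416131 and 693951 counts in the actinomycin D libraries and 440974, 215298 and 152556 in the DMSO libraries. Protein-coding genes took 17.6% to 40.4% of them, and part of that fell on the MTRNR2L genes, nuclear copies of the large mitochondrial ribosomal RNA that are annotated as protein-coding. These copies held 17.4% to 41.1% of protein-coding counts with the drug and 8.05% to 36.3% without it. They were therefore left out of the denominator of every share below, a choice made after their counts were seen. The remaining protein-coding counts were 166968, 82184 and 231449 with actinomycin D and 107092, 76007 and 17091 with DMSO, so DMSO replicate 3 carries the least information. In that library 3 counts, the limit that a count of 0 allows, correspond to 37.3 CPM (counts scaled by library size and TMM factors), against 3.57 to 10.1 in the other 5. Intervals and limits of this kind cover counting error only. Shares and CPM are relative to the other counts of a library, so gains and losses below are not absolute amounts.

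Among all genes with enough counts, 92 of 2426 (3.79%) changed at an adjusted p under 0.05 (edgeR's quasi-likelihood test, Benjamini-Hochberg adjustment), 39 of them upward (1.61%) and 53 downward (2.18%). Before adjustment 663 (27.3%) had a p under 0.05. Among protein-coding genes, 36 of 2225 rose (1.62%) and 53 fell (2.38%), with adjusted p between 0.0417 and 0.0498 in both directions. The calls therefore lie close to the threshold, and 617 of the 2225 protein-coding genes (27.7%) had an unadjusted p under 0.05. A looser count, of genes whose 3 actinomycin D values all lay on one side of the 3 DMSO values, gave 450 higher (20.2%) and 377 lower (16.9%). The median log2 fold change of the 2225 genes was 0.05. No gene was called when any one of actinomycin D replicate 1, actinomycin D replicate 2, DMSO replicate 1 or DMSO replicate 2 was left out (426 to 663 genes at an unadjusted p under 0.05), while 282 genes were called without actinomycin D replicate 3 and 55 without DMSO replicate 3. Scaled by library totals instead of TMM factors, 7 genes were called, all higher, and DESeq2 called 58 higher and 49 lower. The class descriptions below therefore give the values of every library beside the calls.

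Footprints on the proteins of the cytosolic ribosome made up more than 2 times the share in treated libraries that they made up in controls. Together these proteins took 4.6%, 4.94% and 6.62% of protein-coding footprints in the actinomycin D libraries and 2.21%, 3.10% and 1.61% in the DMSO libraries. Every treated library stood above every control library, and the means were 5.39% ± 1.08 and 2.31% ± 0.745 (SD, n = 3), a ratio of 2.33. The Wilson 95% interval of a single library reached at most 0.189 percentage points to either side. Of 30 classes compared, 4 had shares that were higher in all 3 treated libraries, 12 had shares that were lower and 14 overlapped. Shares that do not overlap give an exact two-sided permutation p of 0.1, the smallest that 3 against 3 can give.

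**Figure D1:**
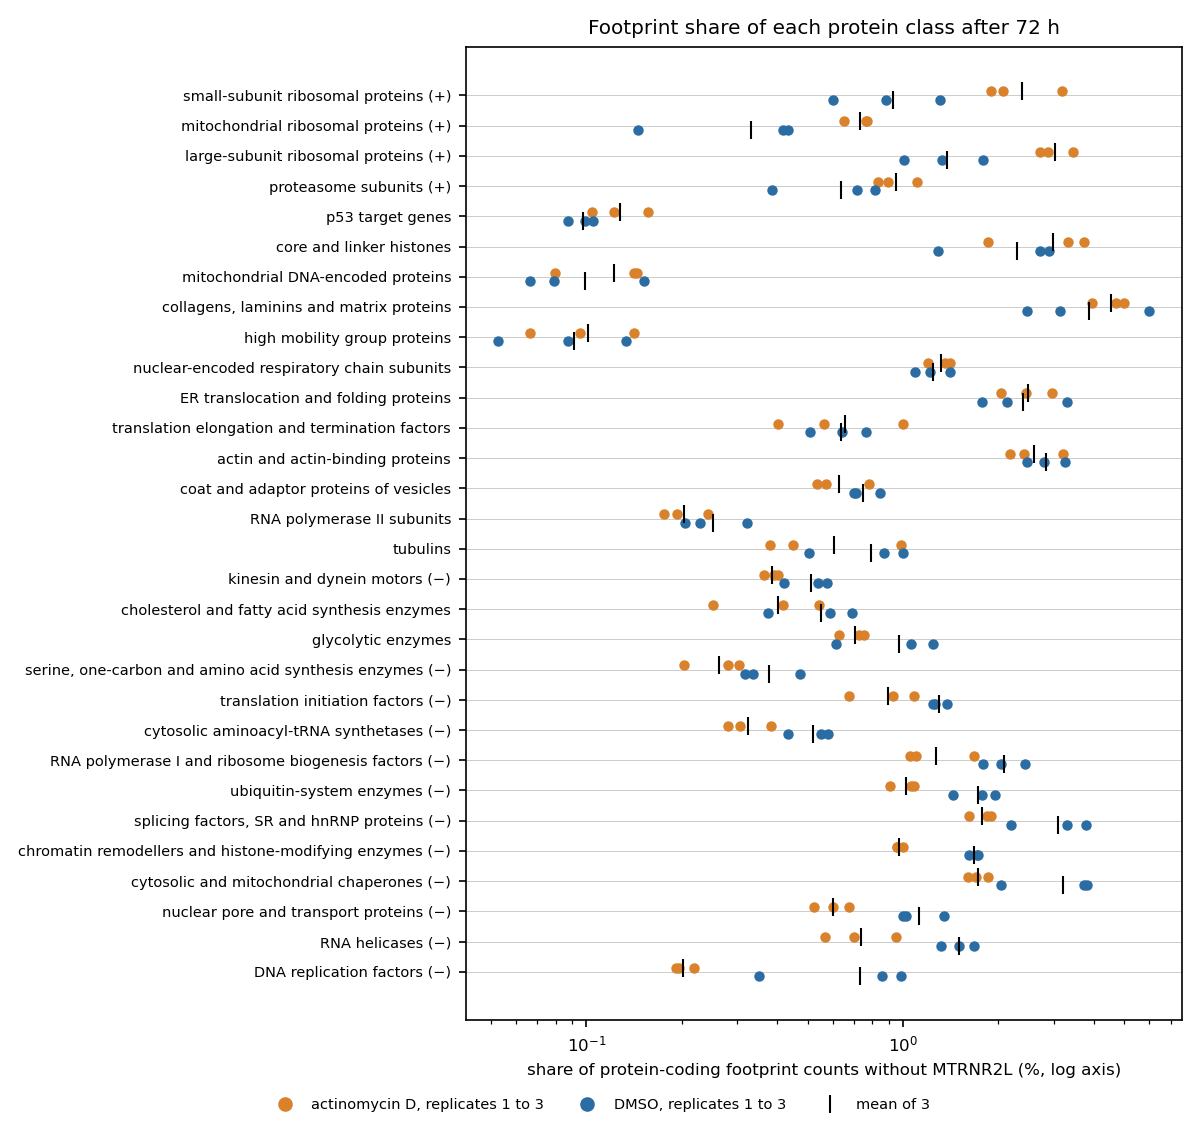
Share of protein-coding footprint counts (MTRNR2L genes left out, percent, log axis) taken by each of 30 protein classes in the 3 actinomycin D (orange) and 3 DMSO (blue) libraries at 72 h, with the mean of each group as a black tick. A plus sign marks the 4 classes whose treated libraries all lie above the controls and a minus sign the 12 whose treated libraries all lie below, with DNA replication factors at the bottom.

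Large-subunit proteins, which form the part of the ribosome that joins amino acids, took 3.01% ± 0.387 of footprints with the drug and 1.38% ± 0.391 without it. Of 47 listed genes 35 were tested, 5 rose (RPL13, RPL28, RPL34, RPL35 and RPL37A) and none fell, and 20 (57.1%) were higher without overlap. Of all tested protein-coding genes 20.2% were higher without overlap. Among non-ribosomal genes of up to 200 codons the share was 49.6%, close to that of this class. Their median log2 fold change was 1.23, and 34 of 35 had a positive value. RPL37A (ENSG00000197756.9, chr2:216498189-216579180, 92 codons) had 588, 432 and 808 CPM with actinomycin D and 90.5, 121 and 87.1 with DMSO. All treated libraries lay far above the controls, and the log2 fold change was 2.60 ± 0.46 (SE; adjusted p = 0.0473 by edgeR, n = 3 per group). RPL28 (ENSG00000108107.14, chr19:55385345-55403250, 170 codons) had 252, 242 and 573 CPM against 45.2, 70.4 and 49.7, with a log2 fold change of 2.68 ± 0.52 (edgeR adjusted p = 0.0473). Actinomycin D replicate 3 was the highest library for both genes. RPL13 had 249, 231 and 107 CPM against 29.4, 30.2 and 62.2, and here replicate 3 was the lowest of the treated libraries. RPL34 was near the counting limit in the controls, with 26, 16 and 105 counts against 3, 0 and 0.

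The most-read large-subunit genes included several that just missed the threshold. RPL37 had 584, 547 and 1097 CPM against 127, 205 and 99.5 (log2 fold change 2.35 ± 0.52, edgeR adjusted p = 0.0512). RPLP2, a protein of the ribosomal stalk that recruits elongation factors, had 839, 663 and 714 CPM against 190, 235 and 124 (1.99 ± 0.45, edgeR adjusted p = 0.0516). Neither pair of groups overlapped. RPL31 had a log2 fold change of 1.18 without overlap, whereas RPL5, which with RPL11 binds MDM2 outside the ribosome, had 0.43 and RPL3 had 0.21, with overlapping libraries for RPL5 and RPL3. The class was thus uneven.

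Small-subunit proteins, which hold the mRNA and the decoding site, took 2.38% ± 0.691 with the drug and 0.930% ± 0.354 without it. Of 32 listed genes 25 were tested, and 14 (56.0%) were higher without overlap and none lower, with a median log2 fold change of 1.30. Higher without overlap were 20.2% of all tested protein-coding genes and 49.6% of non-ribosomal ones of up to 200 codons. By edgeR's test 1 of the 25 rose and none fell. RPS13, the most-read member, ranged from 824 to 2741 CPM in treated libraries and from 24.9 to 597 in controls (2.29 ± 0.98, edgeR adjusted p = 0.179). Its groups did not overlap, but the spread within each was wide. Some ribosomal protein genes carry a small nucleolar RNA (snoRNA) on their annotated exons, and snoRNAs took 1.78% ± 2.04 of treated and 0.533% ± 0.368 of control counts. The 21 tested ribosomal protein genes with such an overlap had a median log2 fold change of 1.20 and the 39 without had 1.46.

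RNA of the ribosomal protein genes did not show the same separation. Their share of protein-coding RNA was 6.97%, 6.73% and 6.55% with the drug and 6.28%, 5.91% and 10.5% with DMSO, so DMSO replicate 3 lay above all treated libraries and the other 2 controls lay below them. The median RNA log2 fold change was -0.34 for each subunit, and 31 of 35 large-subunit and 20 of 25 small-subunit genes had a negative value. Those values rest on that library: without it the medians were -0.01 and -0.02, with 18 of 35 and 13 of 25 negative, against -0.23 for all protein-coding genes tested in footprints. RPL28 had an RNA log2 fold change of -0.24 and RPL37A of -0.14.

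Other classes of mostly short proteins stood on the same side. Mitochondrial ribosomal proteins, which translate the few messages of the mitochondrial genome, took 0.771%, 0.653% and 0.766% of treated footprints and 0.418%, 0.432% and 0.146% of control footprints. Among 20 tested members none was called, 10 (50%) were higher without overlap and the median log2 fold change was 0.88. Higher without overlap were 20.2% of all tested protein-coding genes and 31.3% of those of 201 to 500 codons. MRPL38, the most evenly read, had 92.6, 70.7 and 142 CPM against 47.5, 46.9 and 49.7. Nuclear-encoded subunits of the respiratory chain and ATP synthase had a median of 0.83 over 25 genes, with UQCRB of complex III called higher at 68.7, 73.4 and 76.1 CPM against 15.8, 26.8 and 24.9 (1.75 ± 0.35, edgeR adjusted p = 0.0473). Their summed share overlapped, at 1.32% ± 0.108 and 1.24% ± 0.160, and the most-read subunits, ATP5F1B at -0.57 and ATP5F1A at -0.79, had negative values.

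Proteins that move nascent chains into the endoplasmic reticulum and fold them there had values of both signs, which did not simply follow length. Of 18 tested genes 9 (50%) were higher without overlap and 1 (5.56%) lower, with a median of 1.03. Of all tested protein-coding genes 20.2% were higher and 16.9% lower without overlap. CANX, of 592 codons, had 2.03 and SEC61A1, of 482 codons, had 1.41, whereas SEC62, of 399 codons, had -0.17. SSR2, a subunit of the translocon-associated complex, rose from 11.3, 30.2 and 24.9 CPM to 103, 97.9 and 73.8 (2.13 ± 0.45, edgeR adjusted p = 0.0473). The chaperone HSPA5 (BiP, 654 codons) had 715, 653 and 994 CPM against 1219, 1023 and 2114, lower in every treated library, without reaching the threshold (-0.88 ± 0.50, edgeR adjusted p = 0.280). The class share overlapped, at 2.48% ± 0.457 and 2.40% ± 0.793.

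Proteasome subunits, which form the protease that degrades ubiquitin-tagged proteins, are named in the title of the series as a drug target in this tumor. They took 0.836%, 0.898% and 1.11% of footprints with actinomycin D and 0.715%, 0.816% and 0.386% with DMSO. The groups did not overlap, although treated replicate 1 and control replicate 2 were close. None of 20 tested subunits was called, 4 (20%) were higher without overlap, as were 20.2% of all tested protein-coding genes, and the median log2 fold change was 0.36. PSMB5, the catalytic subunit bound by bortezomib, had 243, 280 and 353 CPM against 163, 218 and 87.1 (0.87 ± 0.44, edgeR adjusted p = 0.240). PSMB1 was listed at 0 in DMSO replicates 1 and 3 but at 77 counts in replicate 2, so its difference rests on those zeros.

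The largest named increases outside the ribosome concerned genes that were nearly empty in the controls. MOB1A (ENSG00000114978.17, chr2:74152528-74178898), an activator of the LATS kinases of the Hippo pathway, had 102, 40 and 189 counts with the drug and 0 in all DMSO libraries. Set against 3 counts per control library, this is at least 8.97-fold higher (edgeR adjusted p = 0.0417). MOB1A had 17130 to 39628 RNA counts per library at 72 h. Its DMSO footprints were 12, 3 and 8 counts at 6 h and 7, 15 and 15 at 2 weeks. Why the 72 h controls were at 0 was not tested. TMED5, a cargo receptor of the early secretory pathway, had 47, 15 and 59 counts against 0 in each control, at least 3.34-fold higher. SNX22 (ENSG00000157734.13, chr15:64151715-64157481) had 88, 57 and 81 counts against 0 in each control, at least 7.07-fold higher. The exons of SNX22 overlap those of PPIB on the opposite strand. SNX22 had only 7 to 18 RNA counts per library, whereas PPIB had 7262 to 21287 RNA counts and 0 footprints in each library, so the footprints listed under SNX22 cannot be told apart from those of PPIB.

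The other named increases had at least 1 control count. UBE2G2, a ubiquitin-conjugating enzyme of endoplasmic reticulum-associated degradation, had 48, 24 and 47 counts against 0, 3 and 1. NKIRAS2, an inhibitor of NF-kappaB signalling whose exons overlap DNAJC7 on the opposite strand, had 48, 16 and 54 against 4, 5 and 0. CLDND1, a claudin-domain membrane protein, had 37, 21 and 58 against 6, 4 and 0, and its RNA log2 fold change was also positive at 1.10. SLITRK5, a neuronal-type transmembrane protein of 958 codons, had 38, 16 and 56 against 6, 2 and 2, with an RNA log2 fold change of 1.04. MTRNR2L11, at 482, 430 and 396 CPM against 72.4, 46.9 and 149, is one of the copies of mitochondrial ribosomal RNA, and its reads cannot be told apart from those of its parent. MYL6, a myosin light chain called outside the naming rule, had 318, 318 and 471 CPM against 90.5, 90.5 and 74.6. Of the 36 genes that rose, 31 had a control library with 3 counts or fewer and 10 were at 0 in all controls.

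**Figure D2:**
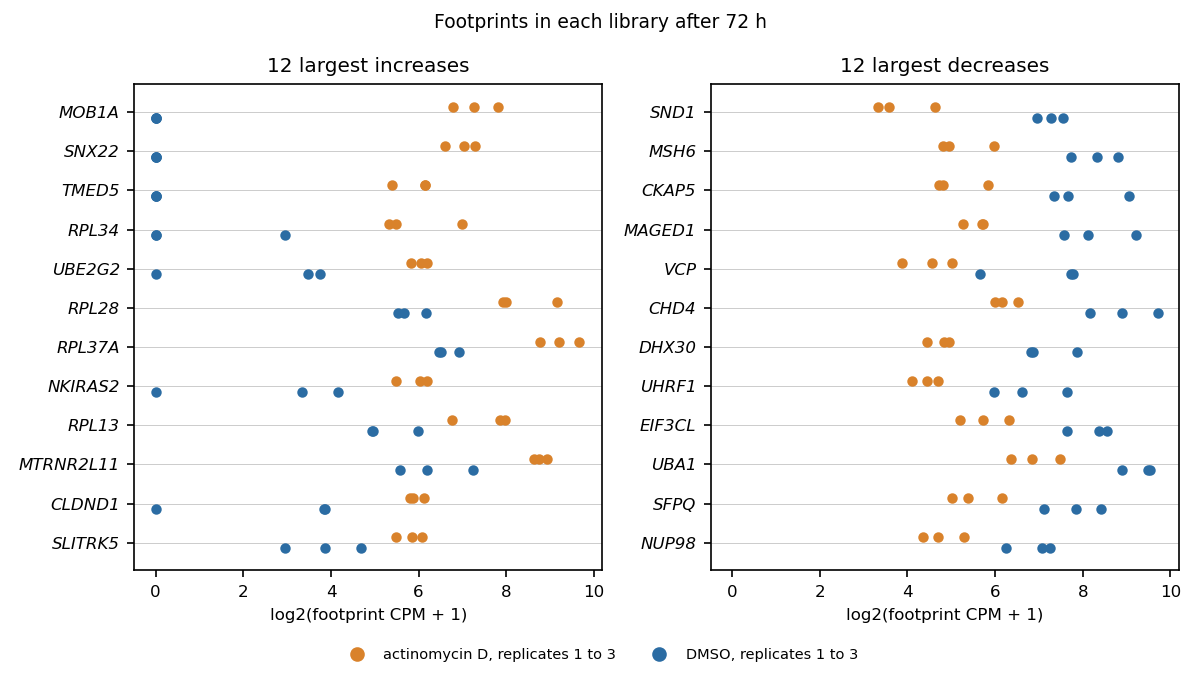
Footprints per library, as log2(CPM + 1), of the 12 genes with the largest increase and the 12 with the largest decrease among called protein-coding genes that average at least 20 counts; orange points are the 3 actinomycin D libraries and blue points the 3 DMSO libraries. The decreases compare libraries that all hold reads, whereas MOB1A, SNX22 and TMED5 lie at 0 in all 3 controls.

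Footprint shares were lower for DNA replication factors and for chromatin remodellers and histone-modifying enzymes, whereas those of histones and of RNA polymerase II subunits overlapped between the groups. DNA replication factors took 0.196%, 0.218% and 0.192% of footprints with the drug and 0.861%, 0.987% and 0.351% with DMSO. The treated libraries were tightly grouped below all controls, and the mean was 3.63 times lower. None of the 7 tested members (of 33 listed) passed the threshold, all 7 had negative values and the median was -2.01. Lower without overlap were 4 (57.1%), against 16.9% of all tested protein-coding genes and 39% of those over 1000 codons. TOP2A, the topoisomerase that untangles replicated chromosomes, had 137, 147 and 140 CPM against 699, 842 and 348 (-2.16 ± 0.47, edgeR adjusted p = 0.0502). MCM7, a subunit of the replicative helicase, had 102, 120 and 131 CPM against 538, 751 and 112, where DMSO replicate 3 fell among the treated values (-2.01 ± 0.65, edgeR adjusted p = 0.104). TOP2B, the isoform used outside S phase, had a smaller value of -0.95 ± 0.38. RNA of the 7 genes also had negative values, with a median of -1.07. The RNA share of the whole class overlapped, at 0.281%, 0.296% and 0.233% with the drug and 0.489%, 0.559% and 0.254% with DMSO.

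Chromatin remodellers and histone-modifying enzymes took 0.955%, 1.00% and 0.955% of treated and 1.61%, 1.71% and 1.73% of control footprints. Of 32 tested, 5 fell (ATRX, CHD4, CHD6, NSD1 and UHRF1), none rose, and 16 (50%) were lower without overlap. Lower without overlap were 16.9% of all tested protein-coding genes and 39% of those over 1000 codons. CHD4 (ENSG00000111642.14, chr12:6570082-6614524, 1940 codons), the ATPase of the NuRD complex, had 70.2, 62.5 and 90.4 CPM against 471, 835 and 286, a log2 fold change of -2.84 ± 0.53 (edgeR adjusted p = 0.0473). UHRF1, which brings the maintenance methyltransferase to newly copied DNA, had 20.9, 16.3 and 25 CPM against 97.3, 198 and 62.2 (-2.54 ± 0.48). SMARCA4, the ATPase of the BAF complex, had 218, 174 and 228 CPM against 403, 369 and 410, and TRRAP, among the longest of the class, had a log2 fold change of 0.07. MSH6 (ENSG00000116062.14, chr2:47695530-47810101), a mismatch repair protein outside the class list, had 26.9, 29.9 and 61.9 CPM against 321, 449 and 211 (-3.04 ± 0.51, edgeR adjusted p = 0.0470).

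Proteins that process and unwind RNA were lower as well. Splicing factors took 1.78% ± 0.146 of treated and 3.09% ± 0.807 of control footprints. Of 44 tested, 3 (6.82%) fell (HNRNPR, SF3B3 and SFPQ), against 2.38% of all tested protein-coding genes. Negative values were found in 38, with a median of -0.73, and in 1069 of all 2225 genes. Without overlap, 12 (27.3%) were lower and 3 (6.82%) higher, against 16.9% and 20.2% of all tested protein-coding genes. SFPQ had 31.4, 40.8 and 70.2 CPM against 228, 342 and 137 (-2.32 ± 0.49, edgeR adjusted p = 0.0473), and HNRNPU had 236, 286 and 156 against 570, 520 and 609 (-1.33 ± 0.43, edgeR adjusted p = 0.103). RNA helicases took 0.566%, 0.700% and 0.950% against 1.5%, 1.68% and 1.32%. Of 19 tested, 3 fell (DDX21, DDX24 and DHX30), 9 (47.4%) were lower without overlap, none was higher, and the median was -1.04. Of all tested protein-coding genes 16.9% were lower without overlap. DHX30, a helicase of mitochondrial and cytosolic RNA, had 20.9, 29.9 and 27.4 CPM against 115, 231 and 112 (-2.58 ± 0.43, edgeR adjusted p = 0.0454). DDX5 was lower in each treated library, but treated replicate 3 at 470 CPM came close to the lowest control at 535. SND1 (ENSG00000197157.10, chr7:127652180-128092609), a staphylococcal-nuclease-domain protein that binds RNA, had the largest decrease of all named genes. Its 8.96, 10.9 and 23.8 CPM stood against 154, 124 and 187 (-3.31 ± 0.47, edgeR adjusted p = 0.0417).

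Proteins of the nuclear pore and of nuclear transport took 0.523%, 0.673% and 0.601% against 1.35%, 0.999% and 1.02%. NUP98 and NUP160 fell, 9 of 22 (40.9%) were lower without overlap and none was higher. Of all tested protein-coding genes 16.9% were lower and 20.2% higher without overlap. Among genes over 1000 codons 39% were lower, close to this class, whose median length was 1040 codons. NUP98 had 19.4, 38.1 and 25 CPM against 152, 134 and 74.6 (-2.21 ± 0.42, edgeR adjusted p = 0.0473), and the import receptor IPO7 had -1.54 ± 0.48. RNA polymerase I and ribosome biogenesis factors took 1.27% ± 0.351 against 2.08% ± 0.320, lower without overlap. TCOF1, which supports transcription of ribosomal DNA, was the only one of 24 to pass the threshold (-1.66 ± 0.33, edgeR adjusted p = 0.0473), 8 (33.3%) were lower without overlap and none higher. Nucleolin (NCL), the most-read of them, had 595, 267 and 1984 counts against 1018, 1043 and 187 and overlapped (-1.03 ± 0.61, edgeR adjusted p = 0.295).

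Enzymes of the ubiquitin system took 0.912%, 1.06% and 1.08% against 1.44%, 1.78% and 1.95%. Of 19 members, 4 (21.1%) were lower and 4 higher without overlap, near the 16.9% and 20.2% of all tested protein-coding genes, and the median was -0.14. UBA1 (ENSG00000130985.16, chrX:47190861-47215128, 1058 codons), the main enzyme that activates ubiquitin, had 80.6, 114 and 177 CPM against 740, 721 and 473 (-2.38 ± 0.49, edgeR adjusted p = 0.0473). VCP, the segregase that feeds ubiquitinated proteins to the proteasome, had 31.4, 13.6 and 22.6 CPM against 213, 218 and 49.7 (-2.86 ± 0.57, edgeR adjusted p = 0.0473). HUWE1, an E3 ligase of 4374 codons, had a log2 fold change of -0.14. UBE2G2, described above, is a ubiquitin-conjugating enzyme that rose but was not on the list.

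The factors that work with the ribosome showed no such rise in their shares. Initiation factors took 0.674%, 0.933% and 1.08% against 1.24%, 1.38% and 1.26%, lower without overlap. Of the 14 tested, 3 (21.4%) were higher and 3 lower without overlap, near the shares of all tested protein-coding genes (20.2% and 16.9%). EIF3A, a scaffold of initiation factor eIF3, had 92.6, 256 and 331 CPM against 398, 630 and 871 (-1.47 ± 0.59, edgeR adjusted p = 0.159). EIF3CL fell (-2.41 ± 0.47, edgeR adjusted p = 0.0473), but its sequence is nearly identical to EIF3C, which had -2.20 ± 0.62, so the split of reads between them is uncertain. Elongation and termination factors took 0.403%, 0.562% and 0.997% against 0.641%, 0.764% and 0.509%, which overlapped. Their 6 tested members had a median log2 fold change of 0.79, 4 positive and 2 negative, and none was called. The shorter EEF1B2 (1.31), EEF1A2 (0.95) and ETF1 (0.64) had positive values, and GSPT1 had -1.57. EEF2, whose window above holds a C or T run across the annotated start, overlapped between the groups. It had 440, 432 and 947 CPM against 1034, 1103 and 858 (-0.72 ± 0.50, edgeR adjusted p = 0.369), with an RNA log2 fold change of -1.57. EEF1A1 ranged from 2 to 764 counts within the treated group and allows no statement. Aminoacyl-tRNA synthetases, which charge tRNAs, took 0.323% ± 0.0530 against 0.520% ± 0.0781. Of 12 tested, 5 (41.7%) were lower without overlap, against 16.9% of all tested protein-coding genes, and none was called. VARS had 140, 139 and 99.9 CPM against 287, 278 and 174.

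Cytosolic and mitochondrial chaperones took 1.60%, 1.70% and 1.86% against 3.81%, 3.74% and 2.04%. None of 21 was called. Without overlap, 4 (19%) were lower, near the 16.9% of all tested protein-coding genes, and 1 (4.76%) was higher, against 20.2%. Among the most-read were HSP90AB1, at 417, 329 and 458 CPM against 1466, 1381 and 1119 (-1.72 ± 0.44, edgeR adjusted p = 0.0704), and HSPA8, at -1.64 ± 0.54. CCT8, a subunit of the ring that folds actin and tubulin, had 0.11 ± 0.52. Glycolytic enzymes all had negative values (11 of 11, median -0.77), as did 1069 of all 2225 tested protein-coding genes. Their share overlapped, with DMSO replicate 3 below the treated libraries. Kinesin and dynein motors took 0.387% ± 0.0192 against 0.512% ± 0.0809. Of 16 tested, 3 (18.8%) were lower without overlap, near the share of all tested protein-coding genes, and 2 (12.5%) were higher. Only KIF4A, a chromosome-arm kinesin, was called lower (-1.62 ± 0.32, edgeR adjusted p = 0.0473). CKAP5, a microtubule polymerase outside the lists, had 25.4, 27.2 and 55.9 CPM against 201, 533 and 162 (-3.04 ± 0.61, edgeR adjusted p = 0.0473). MAGED1, an adaptor of ubiquitin ligases and apoptosis, had 37.3, 51.7 and 51.2 CPM against 276, 188 and 597 (-2.88 ± 0.53, edgeR adjusted p = 0.0473). Serine and one-carbon enzymes took 0.263% ± 0.0530 against 0.376% ± 0.0853, where MTHFD1L fell.

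Several classes showed no separation. Core and linker histones took 3.31%, 3.73% and 1.86% against 2.70%, 2.88% and 1.29%, and none of 56 was called. Histone genes are near-identical copies, and HIST2H4A and HIST2H4B, which share their sequence, varied from 11 to 433 counts within the treated group. Collagens, laminins and matrix proteins took 4.54% ± 0.540 against 3.87% ± 1.88. COL1A1, at 2734, 1887 and 5422 CPM against 989, 919 and 1405, was higher without overlap but not past the threshold (1.60 ± 0.58, edgeR adjusted p = 0.130), and COL3A1 overlapped (0.31 ± 0.49). Of 30 actin and actin-binding proteins 7 (23.3%) were higher and 7 lower without overlap, against 20.2% and 16.9% of all tested protein-coding genes, and values ran from MYL6 at 2.09 to MYH9, the heavy chain of non-muscle myosin, at -1.56 ± 0.50. Coat proteins of vesicles included the small ARF1 (1.53 ± 0.45) and COPZ1 (1.87 ± 0.54) and the large COPG1 (-1.26 ± 0.44), none of them past the threshold. Of 26 p53 target genes only CCNG1 had enough footprints to be tested (1.16 ± 0.49, edgeR adjusted p = 0.176), so that class cannot be described at this depth.

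**Figure D3:**
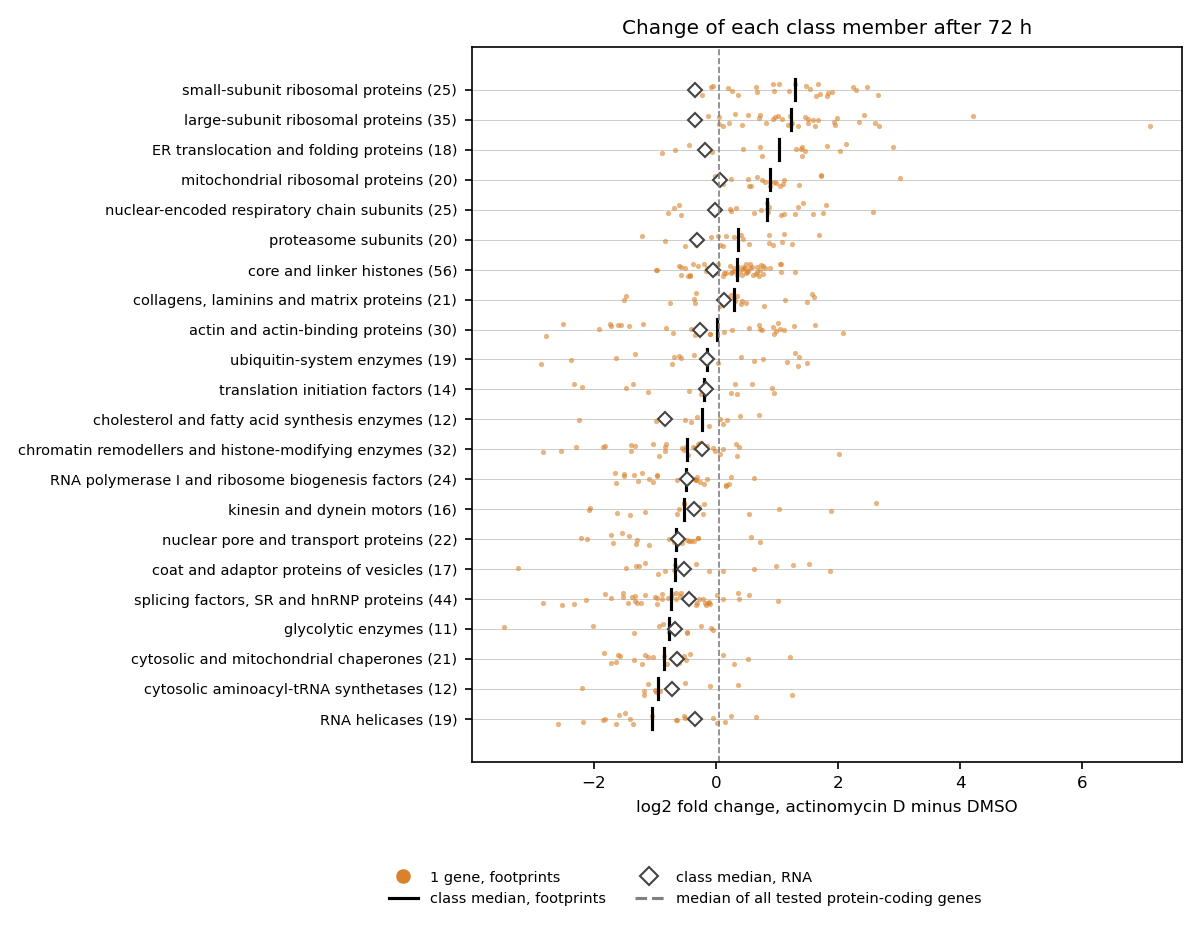
Footprint log2 fold change (actinomycin D minus DMSO) of each tested gene in classes with at least 10 tested members, with the class median as a black bar, the median RNA change as an open diamond and the median of all 2225 protein-coding genes (0.05) as a dashed line; numbers in brackets count genes. Ribosomal proteins lie to the right (medians 1.30 and 1.23) with RNA medians of -0.34, and RNA helicases lie at the left end with -1.04. The point near 7 is RPL35, at 0 in all controls, whose fitted value depends on the prior count.

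The direction of change varied with the length of the protein. Coding length was taken as codons of the longest annotated coding sequence. Of the 36 genes that rose, 34 encode proteins of at most 500 codons (median 211.5), and all 53 that fell encode longer ones (median 1250). The 265 tested genes of up to 200 codons had a median log2 fold change of 1.00, with 17 called higher (6.42%) and none lower. The 767 genes of 201 to 500 codons had 0.54, with 17 higher (2.22%) and none lower. The 698 genes of 501 to 1000 codons had -0.35, with 2 higher (0.287%) and 20 lower (2.87%), and the 495 longer ones had -0.52, with none higher and 33 lower (6.67%). Among the shortest, 51.7% were higher and none lower without overlap, and among the longest 4.44% were higher and 39.0% lower. Spearman's rho between codons and footprint change was -0.584 across the 2225 genes, which share libraries and are not independent.

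**Figure D4:**
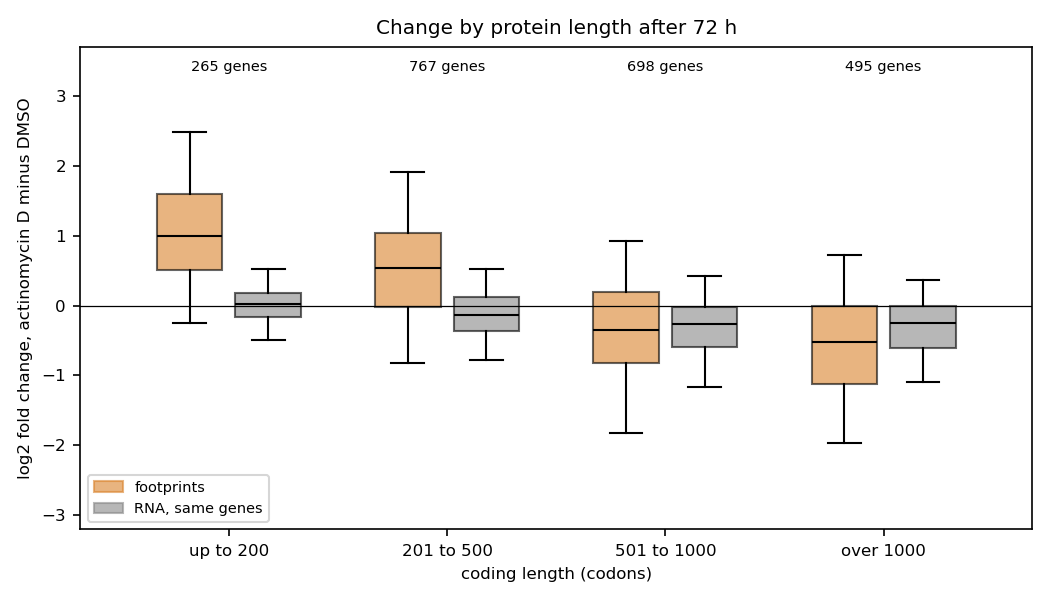
Log2 fold change (actinomycin D minus DMSO, 72 h) of footprints (orange) and RNA (grey) for the same tested protein-coding genes, in 4 ranges of coding length; boxes span the quartiles with the median as a line, and whiskers run from the 5th to the 95th percentile of genes. Footprint medians step from 1.00 to -0.52, and RNA medians from 0.02 to -0.25.

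Ribosomal proteins were not needed for this gradient. Without them the shortest group still had a median of 0.93 (228 genes), and rho was -0.567. Genes above and below the median depth of 21 mean counts gave 1.00 and 1.09 for the shortest and -0.42 and -0.58 for the longest. After every library was thinned to 26831 protein-coding counts, the size of the shallowest, the 4 medians were 1.04, 0.59, -0.45 and -0.55. Only 394 genes (68, 119, 117 and 90 per range) kept enough counts for that fit, so it covers better-read genes only. RNA of the same genes showed a much flatter slope, with medians of 0.02, -0.13, -0.26 and -0.25 and a rho of -0.248.

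Summed over each library, genes of up to 200 codons took 15%, 15% and 14.9% of protein-coding footprints with the drug and 7.42%, 8.90% and 5.90% with DMSO. Those of 201 to 500 codons took 35.4%, 36.5% and 36.6% against 26.8%, 28.8% and 21.1%. Those of 501 to 1000 codons took 28.1%, 28.2% and 27.9% against 38.8%, 37.6% and 39.7%, and the longest 21.5%, 20.3% and 20.6% against 27%, 24.8% and 33.3%. The 3 treated libraries were close to each other in every range, and no control library reached them. In the RNA of the same time point and in the footprints of the other 2, the treated and control libraries overlapped in all 4 ranges.

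**Figure D5:**
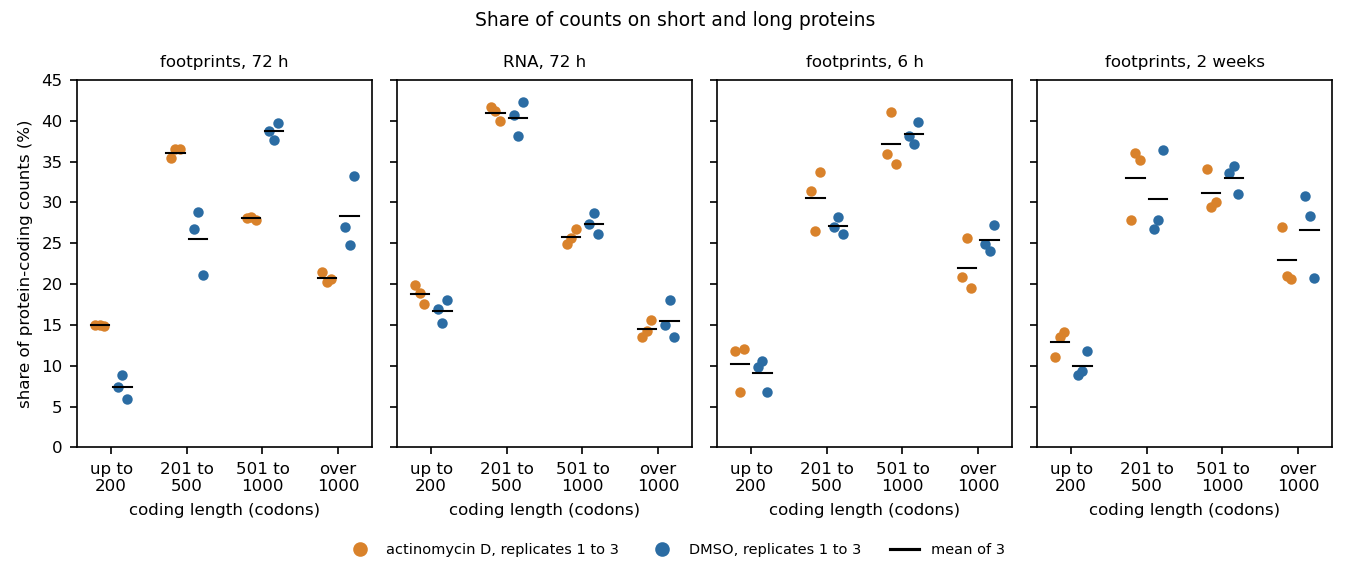
Percent of protein-coding counts (MTRNR2L genes left out) that fall on genes of each range of coding length, for footprints at 72 h, RNA at 72 h and footprints at 6 h and 2 weeks; points are libraries and lines the means of 3. The groups separate in all 4 ranges for footprints at 72 h (15% against 7.4% for the shortest) and overlap in every range of the other 3 panels.

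Since classes differ in length, each gene was also expressed relative to the median of its length range. On that scale the class median was 0.46 for the large and 0.64 for the small ribosomal subunit, 0.18 for mitochondrial ribosomal proteins, 0.09 for the respiratory chain and 0.62 for the proteins of the endoplasmic reticulum. It was -1.57 for DNA replication factors, -1.02 for splicing factors, -0.99 for glycolytic enzymes, -0.70 for RNA helicases and -0.68 for chaperones. Nuclear pore and transport proteins came to -0.27. Chromatin enzymes came to -0.02, so that they lay where proteins of their length lay, and histones, short proteins, came to -0.62. Matrix proteins, which are long, came to 0.77.

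Genes whose footprints fell also tended to lower RNA, judged by fold change only. All 53 had a negative RNA log2 fold change, with a median of -0.89. Among all tested protein-coding genes 1512 of 2214 were negative, with a median of -0.17. Of the 36 that rose, 24 had a positive and 11 a negative RNA value (median 0.17). Across 2214 genes the footprint and RNA changes had a Spearman's rho of 0.566. In the RNA table itself 1 of 21195 genes, MGAT3, passed edgeR's threshold (0.00472% lower, none higher), with 2768 (13.1%) at an unadjusted p under 0.05, and DESeq2 called 129 higher and 479 lower.

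The difference between the footprint and the RNA change was tested in 1 model over the 12 libraries. As designed, 3 of 16435 genes (0.0183%) had a larger footprint than RNA change and 1 (0.00608%) a smaller one, and 1364 (8.3%) had an unadjusted p under 0.05. The 3 were MOB1A, SNX22 and ITM2C, all with 0 control footprints, and the 1 was an antisense transcript. That filter admits genes that are almost empty of footprints. With genes that passed the filter in both assays, chosen after this was seen, 9 of 2311 (0.389%) were higher and 1 (0.0433%) lower, with 345 (14.9%) at an unadjusted p under 0.05, adding TMED5, LAMTOR2, SLC50A1, RPL35, PRDX4 and RPL28 to the first side and placing ZNF281 on the other. Of the 9, only RPL28 had reads in all controls, with a difference of 2.77 on the log2 scale (edgeR adjusted p = 0.0383). Ribosomal proteins had positive differences in 35 of 35 large-subunit and 23 of 25 small-subunit genes, with medians of 1.52 and 1.51. Among all protein-coding genes 1150 of 2214 were positive, with a median of 0.04. Short genes outside the ribosome also gained more footprints than RNA: those of up to 200 codons had medians of 0.93 and 0.03. The RNA medians of ribosomal proteins, -0.34 for each subunit, were -0.01 and -0.02 without RNA DMSO replicate 3. The size of their differences therefore rests in part on that library. Without actinomycin D footprint replicate 2, the designed test gave 19 higher and 3 lower.

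The ribosomal protein share was compared at the other times in separately normalized libraries. At 6 h it was 3.94%, 2.67% and 3.64% with the drug and 1.99%, 2.57% and 2.63% with DMSO. The gap between 2.67% and 2.63% was smaller than the counting interval of a library (0.239 percentage points to either side at most), and the shares of each subunit taken alone overlapped. At 2 weeks it was 2.07% ± 0.495 and 2.02% ± 0.465, with overlap. DNA replication factors took 0.790% ± 0.286 against 1.20% ± 0.109 at 6 h, without overlap, and 0.391% ± 0.120 against 0.539% ± 0.0501 at 2 weeks, with overlap. Of the 30 classes, 5 separated at 6 h and 6 at 2 weeks, against 16 at 72 h. Whether the change at 72 h differs from those at the other times was not tested.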

How the data were processed

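The authors deposited 1 table per assay and time of whole-number values, taken here to be estimated counts per gene made from aligned reads, since no counting program is given in the sources used here. The submitters' processing notes name hg38, HISAT2 and StringTie without versions, and per the labels' protocols footprints were depleted of ribosomal RNA. How reads that map to several places were counted is not given in the sources used here. Identifiers were matched to GENCODE 29 (99.4%), which gave symbols, gene types, GRCh38 positions and coding lengths. Genes were tested with edgeR 4.0.16 in R 4.3.3 (quasi-likelihood, two-sided, TMM, filterByExpr), with p-values adjusted over all genes; the procedure was tested on simulated data. DESeq2 1.42.0 was an alternative. CPM values use TMM-scaled library sizes. Named genes were the 12 largest called changes per direction without overlap between groups and with a mean of at least 20 counts, the 3 most-read members of each class (6 for each ribosomal subunit), and genes called in the footprint-against-RNA test; other genes were picked with their values known. The 30 class lists and the question were chosen with earlier results of these data known. Replicate pairs differed by more than sampling noise. Some genes that meet the naming rule are not reported here. RNA tables at 6 h and 2 weeks were not used here.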

Additional observations from a re-analysis of the deposited data

Results flagged for a closer look

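RNA classes outside the protein-coding comparison also separated the groups. Mitochondrial ribosomal RNA took 21.0%, 15.6% and 12.4% of all 72 h footprint counts with actinomycin D and 5.38%, 4.80% and 10.6% with DMSO, a mean of 16.3% ± 4.34 against 6.94% ± 3.22 (SD, n = 3). Small nuclear RNA took 15.5%, 23.0% and 14.6% against 8.84%, 14.2% and 6.92%, a mean of 17.7% ± 4.62 against 9.99% ± 3.76. Both were higher in every treated library than in any control. Long intergenic noncoding RNA went the other way, at 18.5%, 20.5% and 17.7% against 42.3%, 31.1% and 37.5%. Genes annotated as ribosomal RNA were also lower in every treated library, at 3.46%, 3.12% and 2.6% against 8.82%, 3.92% and 12.6%. Fragments of mitochondrial ribosomal RNA and small nuclear RNA are not footprints of cytosolic ribosomes. The part of any of these classes in the differences between protein classes was not tested.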

How the results depend on the processing

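The direction was steadier than the calls. The gap between the medians of the shortest and the longest proteins, 1.51, moved by less than its spread under all 14 alternatives (1.52 to 1.83 with 1 library left out). The log2 ratio of shares ranged, with 1 library left out, from 0.95 to 1.36 for large-subunit and from 1.09 to 1.68 for small-subunit ribosomal proteins, from -2.19 to -1.59 for DNA replication factors, from -1.24 to -0.86 for RNA helicases and from -0.82 to -0.78 for chromatin enzymes. The last was -0.79 as reported, -0.72 over all counts, -0.89 without its most-read gene and -1.04 with MTRNR2L genes in the denominator. Of values larger than their spread between libraries, signs turned for 3: respiratory chain (-0.29) and coat proteins (0.08) with a mean of at least 50 counts, relative to all genes, and the p53 target share (-0.17) without its most-read gene. Smaller values turned with 1 library left out for 5 of 26 class medians relative to all genes: initiation factors (-0.23, up to 0.02 without DMSO replicate 1 or 2), tubulins (-0.19, up to 0.37 without DMSO replicate 2 or actinomycin D replicate 1), actin-binding proteins (-0.02, up to 0.29, without any of 3 libraries), matrix proteins (0.25, to -0.04 without DMSO replicate 2) and cholesterol enzymes (-0.27, to 0.08 without actinomycin D replicate 3). The same held for 4 of 30 share ratios: elongation factors (0.04, to -0.40), ER proteins (0.05, to -0.13), high mobility group proteins (0.15, to -0.17) and matrix proteins (0.23, to -0.01).

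The 92 footprint calls became 7 with library totals, 321 with no filter (238 higher, 83 lower of 13813), 0 of 483 with a mean of at least 50 counts (131 at an unadjusted p under 0.05), 182 (91 higher, 91 lower) with protein-coding genes alone, 252 without the MTRNR2L genes and 24 after thinning. They ranged from 0 to 282 with 1 library left out. DESeq2 called 107, of which 67 were among the 92. RNA calls were 608 with DESeq2 and 0 to 3 with 1 library left out. The footprint-against-RNA calls, 4 as designed, were 118 with DESeq2, 7 with RLE factors, 8 with no filter, 10 with genes past the filter in both assays and 0 to 22 with 1 footprint or RNA library left out (2 without the RNA of DMSO replicate 2). The causes were not tested. Fits of protein-coding genes alone and without MTRNR2L genes shifted the median of all protein-coding genes by 0.11 and 0.12 on the log2 scale. Under them and under the 3 other scalings, ribosomal proteins had medians of 1.27 to 1.35 and the longest proteins -0.50 to -0.44.

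Replicate numbers were not shown to pair libraries: deviations from the group means correlated at 0.0447, -0.0338 and -0.0305 between treated and control footprints, with 1 of 3 libraries matching its own number best. In RNA these were 0.085, 0.226 and 0.15, with 3 of 3 matching, a hint from the data only, since 1 was not over 0.1. Footprints and RNA of the same number correlated at 0.174, 0.197 and 0.43 with the drug and 0.157, 0.0877 and 0.191 with DMSO. With the replicate block, 0 footprint genes (584 at an unadjusted p under 0.05), 0 RNA genes (3060) and 0 footprint-against-RNA genes (1037) were called by edgeR. Depth limits what can be said of genes with few counts: DMSO replicate 3 held 17091 usable protein-coding counts.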
